A study of Mus musculus with 3 samples.

Results

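In mouse induced regulatory T cells (iTreg cells), 407 regions were strongly bound by both BACH2 and JunD in ChIP-seq, a method that sequences the DNA recovered with an antibody against a bound protein. A region was counted when a JunD peak with a score of at least 110 and a width of at most 1000 bp overlapped, by at least 1 bp, a BACH2 peak with a −log10 q of at least 20. The −log10 q gives the statistical significance of a peak over the caller's background after adjustment for multiple testing. It is a different measure from fold enrichment. Each JunD peak was paired with its strongest overlapping BACH2 peak. The 407 regions were 7.77% of the 5237 peaks in the JunD list, and their paired peaks were 4.46% of the 9133 in the BACH2 list. They made up 15.9% of the 2557 JunD peaks that any BACH2 peak overlapped. The regions were selected on BACH2 −log10 q, JunD score and JunD width, so these values are given below as a description and no test was made on them.

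BACH2 is a transcriptional repressor with a basic leucine zipper, and it binds DNA as a heterodimer with a small Maf protein. Its recognition element contains the core of the AP-1 site, to which JunD binds as a dimer with another Jun, Fos or BATF family protein. The factors can therefore occupy overlapping DNA. In T cells, AP-1 acts downstream of antigen receptor signalling, whereas BACH2 is known for restraining effector programmes and for supporting regulatory T cells.

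The cells came from spleens of wild-type C57BL/6 mice 8 to 12 weeks old. Enriched and sorted CD4+ T cells were activated on plates coated with antibodies to CD3ε and CD28 in medium with TGF-β for 4 days, so the cells were made in culture and are not regulatory T cells taken from the animal. The labels name 1 library for each of BACH2, JunD and input chromatin, and do not say how many mice were used. All groups shared genotype, stimulus and culture time. The BACH2 library used an antibody given as N-2, and 2 catalogue numbers are listed for JunD without saying which gave the library.

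With 1 library per factor there was no replicate error. Read counts are not part of the peak lists, and the depth behind a peak is unknown. Both lists hold peaks above their callers' thresholds only. Each factor had its own library, so overlapping peaks do not show both proteins on the same DNA molecule or in the same cell. Peak lists carry no expression values, so the labelled cell type could not be checked against marker genes. Positions are mm9, counted from 1. Sequence and gene annotation of that build were not used here, so regions are named by position, without genes or motifs. Intervals on shares and medians cover the counting of regions only.

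The regions spanned a wide range of strength in both lists. Fold enrichment of the paired BACH2 peak ran from 4.90 to 39.6 with a median of 10.2 (interquartile range 8.03 to 14.6). Its −log10 q ran from 20.04 to 245, with a median of 45.6 (28.9 to 80.5). The JunD score ran from 110.07 to 860.1, with a median of 164 (131.3 to 230). In rank, BACH2 peaks stood between 7 and 2709 of their list and JunD peaks between 17 and 1632. No region had both ranks within 100. The 25 regions with a BACH2 rank within 100 (6.14% of the 407) and the 9 with a JunD rank within 100 (2.21%) thus had none in common. With shares this small, nothing is read from the lack of overlap. Within 250 there were 59 regions by BACH2 rank (14.5%) and 51 by JunD rank (12.5%), with 10 in both. Within 500 there were 118 (29.0%) and 133 (32.7%), with 43 in both. Nothing is read from these counts either. JunD ranks ran over the whole list, including peaks over 1000 bp wide that the rule left out.

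**Figure D1:**
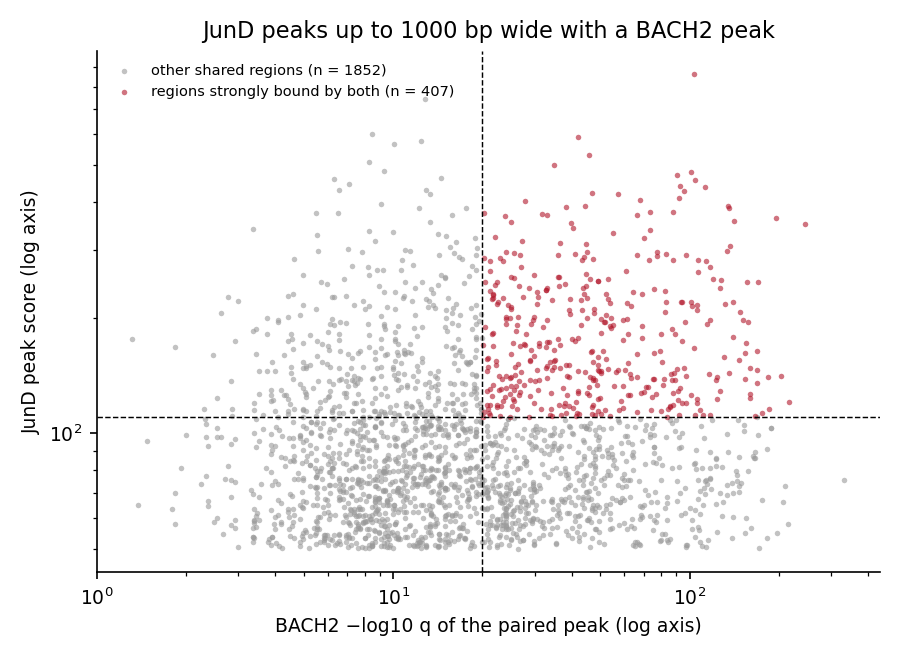
BACH2 −log10 q of the paired peak (x, log axis) against JunD score (y, log axis) for all 2259 JunD peaks up to 1000 bp wide that a BACH2 peak overlapped; dashed lines mark 20 and 110. The 407 regions past both lines are red, the other 1852 grey, and within the red points high BACH2 values occur at low and at high JunD scores.

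By the sum of both ranks, the leading region lay on chromosome 11, where a JunD peak at 116267411 to 116268255 scored 351 and ranked 166. Its BACH2 peak had a −log10 q of 245, rank 7, and a fold enrichment of 28.4. Next came chromosome 8 (89380094 to 89380706), with a −log10 q of 196 at 24.5-fold and a JunD score of 364. In both of these regions BACH2 stood higher in its list than JunD did.

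The region of chromosome 17 at 66310739 to 66311645 had the highest JunD score of the set, 860.1, with a −log10 q of 103. Another region of that chromosome, at 8132205 to 8132972, combined a score of 391 with a −log10 q of 135 and a fold enrichment of 13.9. A nearly equal −log10 q, 136, came with a fold enrichment of 22.9 on chromosome 19 (4992891 to 4993395, JunD score 385). Fold enrichment thus differed between these regions of chromosomes 17 and 19 at nearly equal −log10 q. Across all 407 regions the measures rose together, with a Spearman's rho of 0.86 between −log10 q and fold enrichment. Across the other 1852 shared regions with a JunD peak up to 1000 bp wide, rho was 0.92. These correlations are given without a test.

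Chromosome 5 held 2 of the leading 10, at 33273389 to 33273958 (23.6-fold, score 356) and 105734902 to 105735724 (18.0-fold, score 479). The second of these had a BACH2 peak of 1082 bp, wider than its JunD peak of 823 bp. The other 3 lay on chromosome 7 (65730261 to 65731031, 14.6-fold, score 437), chromosome 13 (45967176 to 45967865, 27.0-fold, score 308) and chromosome 9 (60846689 to 60847454, 17.3-fold, score 456). BACH2 fold enrichment over the 10 ran from 13.9 to 28.4, in a set picked partly by BACH2 rank.

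Of the 5 regions with the highest −log10 q, those on chromosomes 11 and 8 are described above. The second highest −log10 q of the set, 217 at 28.8-fold, belonged to chromosome 16 (87713049 to 87713605), where the JunD score of 121 ranked 1384. Elsewhere on chromosome 16, at 55754337 to 55755016, a −log10 q of 204 met a JunD score of 141. On chromosome 1, at 130663346 to 130664308, a −log10 q of 185 met a score of 116. JunD scores over these 5 regions thus ran from 116 to 364.

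The next JunD scores of the set after 860.1 were 591 on chromosome 7 (126979427 to 126980394), 531 on chromosome 5 (122738048 to 122739029) and 500 on chromosome 18 (65638566 to 65639417, JunD score 499.76). Their BACH2 peaks had −log10 q values of 41.9, 45.9 and 34.8 and fold enrichments between 8.75 and 9.54. The fifth was the region at 105734902 on chromosome 5 described above. Over the 5 regions with the highest JunD scores, BACH2 fold enrichment thus ran from 8.75 to 20.4.

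The rule cut on both strengths, so how they go together within the set is given only as a description. Split into 4 equal groups by BACH2 −log10 q, from strongest to weakest, the regions had median JunD scores of 165, 159, 171 and 165. These groups held 102, 102, 101 and 102 regions. Of them, 29, 22, 28 and 23 were also in the strongest of 4 equal JunD groups, and 27, 23, 23 and 29 in the weakest. The strongest BACH2 group was thus close to the others in both counts. Across the 407 regions Spearman's rho between −log10 q and score was 0.039. It was −0.16 across the other 1852 shared regions with a JunD peak up to 1000 bp wide, from which regions high in both had been taken out. Both values come from regions of the same pair of libraries, are shaped by the thresholds and are given without a test. BACH2 width did follow BACH2 strength, with medians of 542.5, 442.5, 392 and 345.5 bp over the same groups. Median JunD width over those groups stayed between 644 and 682 bp.

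The thresholds cut through a continuous range. The weakest BACH2 peaks kept had a −log10 q of 20.04 on chromosome 12 (JunD peak 36766031 to 36766796) and chromosome 2 (34813422 to 34813937), followed by 20.19 on chromosome 15 (66682629 to 66683624). Just outside were 19.86 on chromosome 8 (124374748 to 124375379), 19.84 on chromosome 1 (43596487 to 43597276) and 19.83 on chromosome 18 (68988578 to 68989241). For JunD, the lowest scores kept were 110.07 on chromosome 1 (94015760 to 94016201) and on chromosome 6 (31445192 to 31445665), then 110.16 at the same region of chromosome 2. The nearest left out scored 109.95 on chromosome 15 (76446894 to 76447319), 109.44 on chromosome 2 (72676046 to 72676729) and 109.1 on chromosome 14 (26008796 to 26009296). The widest JunD peaks kept measured 1000, 996 and 994 bp, and the narrowest left out by width alone 1001, 1005 and 1008 bp.

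BACH2 summits lay within 100 bp of the JunD peak centre in most regions. The overlap rule and the widths of both peaks limit this distance, and the distance that placement alone would give was not computed. The median distance from BACH2 summit to JunD peak centre was 46.5 bp (95% interval of the median 41 to 53.5), with an interquartile range of 20.5 to 90 bp. The summit lay within 25 bp of the centre in 118 regions (29.0%), within 50 bp in 213 (52.3%) and within 100 bp in 322 (79.1%, 74.9 to 82.8). In the other 1852 shared regions with a JunD peak up to 1000 bp wide, the median was 45.5 bp (42.5 to 48.5), and 53.5% and 79.4% lay within 50 and 100 bp. The intervals of the medians overlapped, and no test of the difference was run. By threshold, the median in the others was 55 bp (46 to 60.5) where JunD alone passed. It was 43.5 bp both where BACH2 alone passed (38 to 47.5) and where neither did (40.5 to 48). JunD peaks of the strongly bound set were wider than those of the pooled others, with a median of 665 against 542.5 bp. The rule cut on JunD score and width, so nothing is read from this difference. Median JunD width was 655 bp where JunD alone passed its threshold, 509 bp where BACH2 alone passed and 522 bp where neither did. As a fraction of the way from centre to edge, the median distance was 0.152 in the set (0.136 to 0.170) and 0.170 in the others (0.162 to 0.179).

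The closest match was on chromosome 2 (38391595 to 38392523, JunD score 248), where the BACH2 summit, at a −log10 q of 170, fell on the JunD centre to the base. Distances of 0.5 bp occurred on chromosome 1 (94015760 to 94016201), chromosome 13 (53009843 to 53010426) and chromosome 6 (40840836 to 40841363), and 1 bp on chromosome 11 (98331288 to 98332102). These 5 regions were not the strongest of the set, since their −log10 q ran from 26.0 to 170 and their JunD scores from 110.07 to 292. Over all 407 regions, Spearman's rho of the distance was 0.018 with −log10 q and 0.030 with JunD score. It was 0.44 with JunD width and 0.30 with BACH2 width, and the widths of both peaks limit how far apart overlapping peaks can lie.

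The 5 farthest summits lay between 269.5 and 591.5 bp from the JunD centre. On chromosome 4, the summit lay 591.5 bp from the centre of the JunD peak at 32492139 to 32492954, outside that peak, and the JunD peak overlapped 2 BACH2 peaks. The same layout was seen on chromosome 15 (59355814 to 59356697), at 452.5 bp. The next 3 distances were 339 bp on chromosome 4 (11015937 to 11016667), 277 bp on chromosome 6 (70774739 to 70775373) and 269.5 bp on chromosome 5 (53979538 to 53980369), each in a JunD peak with 1 BACH2 peak. Of all 407 summits, only these first 2 fell outside their JunD peak. Most regions were simple pairs, since 401 of 407 (98.5%, 96.8 to 99.3) held 1 BACH2 peak and 6 held 2. In the other shared regions 98.2% (97.5 to 98.7) held 1.

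The side of the summit was uneven. It lay at a higher coordinate than the JunD centre in 239 regions (58.7%, 53.9 to 63.4) and at a lower one in 167, with a median offset of 11.5 bp (6.5 to 19). In the other shared regions 51.2% (49.0 to 53.5) lay at the higher side, with a median offset of 2 bp (−1 to 6). Split by threshold, the share at the higher side was 47.2% (43.2 to 51.2) where BACH2 alone passed, 52.8% where JunD alone passed and 53.3% where neither did. Measured from the centre of the BACH2 peak in place of its summit, the share in the strongly bound set was 54.8% (49.9 to 59.6), an interval that includes an even split. No test was run, because regions of 1 pair of libraries are not replicates.

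**Figure D2:**
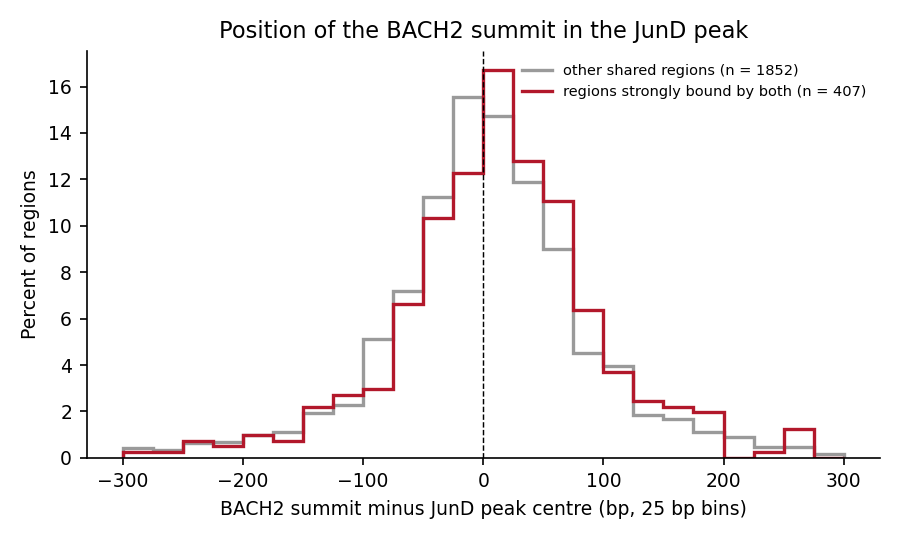
BACH2 summit minus JunD peak centre in bp (x, bins of 25 bp) as a percent of regions (y), for the 407 strongly bound regions (red) and the other 1852 shared regions (grey); offsets beyond the plotted range are left out of view but kept in the totals. Both curves are highest next to the JunD centre, and the median offset is 11.5 bp for the red curve and 2 bp for the grey one.

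The JunD peak usually enclosed the BACH2 peak. The whole BACH2 peak lay inside it in 307 of the 407 regions (75.4%, 71.0 to 79.4), and the reverse was seen in 18 (4.42%). In the other 1852 shared regions these shares were 76.7% (74.7 to 78.6) and 2.65%. BACH2 peaks had a median width of 440 bp, and a median of 67.4% of the JunD peak was covered. Enclosure differed with which factor passed its threshold. It was 84.4% (81.9 to 86.7) in the 867 regions where neither passed. The share was 94.5% (91.8 to 96.3) in the 400 regions where JunD alone passed its threshold, and 53.2% (49.1 to 57.2) in the 585 where BACH2 alone passed. Median BACH2 widths were 263.5 bp where JunD alone passed, 397 bp where BACH2 alone passed and 241 bp where neither did, beside JunD medians of 655, 509 and 522 bp. Widths thus differed between these sets too, and the part of width in the enclosure was not tested.

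Among shared JunD peaks up to 1000 bp wide, a JunD score of at least 110 was reached by 41.0% of the 992 with BACH2 past its threshold and by 31.6% of the 1267 with BACH2 below it. Among all 1249 JunD peaks that passed score and width (23.8% of the list), BACH2 overlapped 807 (64.6%), and in 407 (32.6%) the BACH2 peak also passed. The share overlapped over all JunD peaks up to 1000 bp was 47.5%. Of the 2711 BACH2 peaks past 20 (29.7% of the list), 1114 (41.1%) met some JunD peak and 407 (15.0%) were the paired peak of a strongly bound region. The rule used these values, and nothing further is read from them.

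Strongly bound regions were found on all 19 autosomes and on X. Chromosome 1 held most, 51, or 25.6% (20.1 to 32.1) of its 199 shared JunD peaks up to 1000 bp wide. Over all chromosomes that share was 18.0%. The lowest was on chromosome 8, with 10 of 107 (9.35%, 5.16 to 16.4), followed by X (10.7%) and chromosome 14 with 8 of 73 (11.0%, 5.66 to 20.2). Intervals of chromosome 1 and chromosome 8 did not include 18.0%, and those of the other chromosomes did. These are 20 intervals without adjustment, and no test was run.

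**Figure D3:**
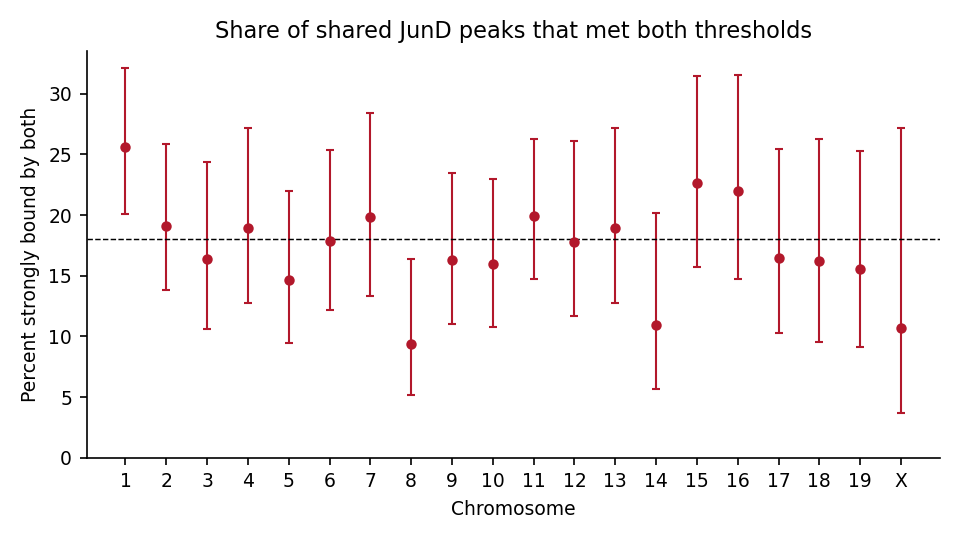
Percent of shared JunD peaks up to 1000 bp wide that met both thresholds (y), by chromosome (x), with Wilson 95% intervals as bars; the dashed line is the 18.0% of all chromosomes. Chromosome 1 is highest at 25.6% and chromosome 8 lowest at 9.35%.

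The X chromosome carried 3 of the 407 regions, or 0.0183 per Mb from its start to its last peak. The autosomes had a median of 0.158 per Mb (range 0.0648 to 0.296). At 20393901 to 20394598 the BACH2 peak was 25.9-fold enriched and the JunD score 120. At 137077447 to 137078031 the values were 9.22-fold and 156, and at 163529720 to 163530289 they were 11.9-fold and 112. The first of these BACH2 peaks was thus well above the median of 10.2-fold for the set, while all 3 JunD scores were below the median of 164. X held few shared JunD peaks up to 1000 bp wide in all, 28. Coverage of X in these libraries is unknown.

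The spacing of strongly bound regions depends on how many were selected. It was not computed for other peaks, so the values are a description only. The median distance between neighbouring regions on a chromosome was 2.60 Mb, with quartiles of 463 kb and 8.17 Mb. Another strongly bound region lay within 10 kb in 25 of 407 cases (6.14%), which formed 11 pairs and 1 group of 3. Other peaks were common nearby, since 48.9% of the regions had another BACH2 peak and 33.7% another JunD peak with its centre within 10 kb. In the other shared regions up to 1000 bp wide these shares were 46.4% and 31.7%. No other peak of either list lay within 10 kb in 186 strongly bound regions (45.7%, 40.9 to 50.6), against 47.4% (45.1 to 49.7) of the other shared regions. The intervals of the last pair of shares overlapped.

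The group of 3 lay on chromosome 1 between 129129509 and 129139333. Its members had JunD scores of 239, 255 and 204, so JunD was similar at all 3. The BACH2 −log10 q values were 127, 24.9 and 39.4, so BACH2 was uneven. Among the 11 pairs, the tightest was on chromosome 2, where JunD peaks at 38327148 to 38327904 and 38328182 to 38328870 had centres 1000 bp apart. Their −log10 q values were 120 and 86.8, their BACH2 fold enrichments 11.4 and 15.3 and their scores 253 and 142.

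On chromosome 7, peaks at 29165790 to 29166474 and 29167496 to 29168437 lay 1834.5 bp apart, with a −log10 q of 33.1 at the first and 152 at the second. JunD had the opposite order there, with scores of 238 and 197. Chromosome 13 held 2 of these pairs within the closest 10 groups. The pair at 46017732 and 46019705 had −log10 q values of 94.5 and 42.9 and similar scores of 174 and 191. In the pair at 45962641 and 45967176, both factors were higher at the second peak (−log10 q 20.8 and 137, scores 149 and 308).

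The second pair of chromosome 2, at 13331166 and 13334967, was again crossed, with −log10 q values of 131 and 91.8 and scores of 158 and 410. A pair on chromosome 1 at 61102685 and 61107008 had similar BACH2 values, 57.1 and 61.1, and scores of 146 and 264. Another at 108509011 and 108513391 had −log10 q values of 22.7 and 34.8 and scores of 141 and 149. On chromosome 8, at 96977870 and 96982441, the first peak was higher for both factors, at 80.6 and 20.7 for BACH2 and 154 and 119 for JunD. The last of the 10 closest groups, on chromosome 15 at 62071396 and 62076705, had nearly equal scores, 239 and 242, and −log10 q values of 43.5 and 26.6. By −log10 q, BACH2 and JunD were thus higher at the same peak in some pairs and at different peaks in others. Some of these values were nearly equal, and with 1 library per factor it is unknown whether their order would repeat. By fold enrichment, the order of BACH2 was reversed in the tightest pair and the same in the other pairs described.

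**Figure D4:**
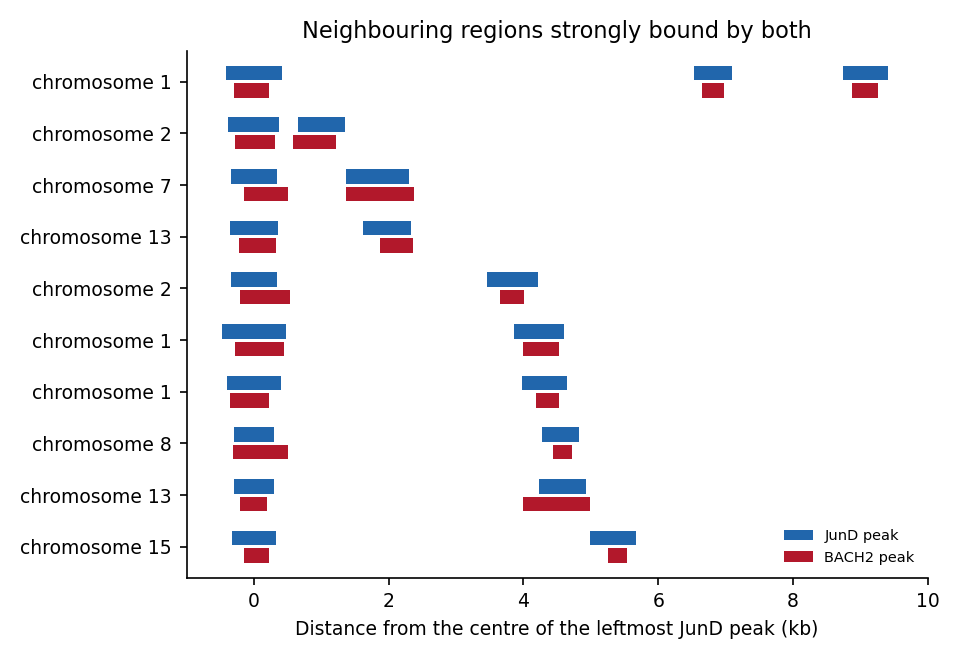
JunD peaks (blue) and their paired BACH2 peaks (red) in the group of 3 and the 9 closest pairs of strongly bound regions, drawn to scale against distance in kb from the centre of the leftmost JunD peak; rows are ordered as the group of 3 first and then by the distance between centres. The tightest pair has JunD centres 1000 bp apart, and each red bar overlaps its blue bar.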

How the data were processed

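Peak lists of the BACH2 and JunD ChIP libraries were analysed, 1 library per group. The input was not used here. The submitters' processing notes name Bowtie 0.12.9 and the mm9 build (NCBIM37). For the peak caller, version and control were not stated in any source used here. Peak names in the JunD list begin with MACS. The deposited BACH2 list gives a fold enrichment, −log10 p and q-values, a summit and an integer score for every peak. That score was the −log10 q times 10 without its decimals in 100% of peaks. The deposited JunD list gives only a score of unstated scale, 50 at the lowest. These values are the authors' own for each peak and were used only within their list. The lists give no depth.

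Overlap was at least 1 bp. The JunD list has no summits, so peak centres were used. Shares have Wilson 95% intervals and medians have 95% order-statistic intervals. No significance test was run. Regions were named by rule: the 10 smallest rank sums, the 5 extremes of each strength and distance, those nearest each threshold, and the 10 closest groups, ties in group size broken by shortest distance. Regions on X and those with most neighbouring peaks were chosen with their values in view. The regions, lists and rules were chosen with earlier results of these data known. Pairing and counting were tested on simulated data with planted overlaps. Planned counts of genes and motifs were not run. Python 3.11.15, numpy 2.4.6, pandas 2.3.3, scipy 1.17.1 and matplotlib 3.10.9 were used.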

Additional observations from a re-analysis of the deposited data

How the results depend on the processing

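The number of strongly bound regions stayed within 1.5 times of 407 under 11 of 13 alternatives, which ranged over 295 to 608 regions. It fell to 233 with a JunD score of at least 150 and to 148 with a JunD width of at most 600 bp, both of which keep fewer peaks by construction. Some of the 11 could move the count only a little, such as leaving out chromosome X (404 regions) or chromosome 13 (386 regions). The tally of 11 is therefore a description only. Taking the 2711 BACH2 peaks of highest fold in place of highest −log10 q gave 351 regions, and 334 of these were among the 407. The median distance from summit to centre moved from 46.5 to 57 bp without a width limit. It was 51 bp with a BACH2 −log10 q of at least 30 and 48.5 bp with a JunD score of at least 150. With at least 50% of the BACH2 peak covered it was 46.75 bp, but that kept 406 regions and could change little. Measured from the BACH2 peak centre in place of the summit, the median distance was 43 bp. The share of BACH2 peaks inside the JunD peak was 80.3% with a JunD score of at least 150 and 71.5% with a BACH2 −log10 q of at least 30. The median BACH2 width was 468 bp with a −log10 q of at least 30. The share of regions with a strongly bound neighbour rose from 6.14% to 15.2% when neighbours within 50 kb were counted. Alternatives for genes and motifs were not run. No paired analysis was possible because only 1 library stood in each group. Weaker sites than those the callers kept could not be counted, at a depth that is unknown.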

Other observations

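A further 98 regions passed both strength thresholds but had a JunD peak over 1000 bp wide. Their JunD peaks had a median width of 1235 bp and reached 6467 bp. The median JunD score was 248, against 164 in the 407 narrower regions, and the median BACH2 fold enrichment was 8.37, against 10.2. In 26 of the 98 (26.5%) the JunD peak overlapped 2 or more BACH2 peaks, against 6 of 407. BACH2 summits lay a median of 206 bp from the JunD centre. These differences were not tested, and the part of width in them was not tested.

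The strongly bound regions with most other BACH2 peaks within 10 kb lay on chromosome 19, at 32337224 to 32337619 and 32348496 to 32349057, with 5 each. JunD scores there were nearly equal, 224 and 213, while the −log10 q values were 52.9 and 24.9. Another 5 regions, on chromosomes 1, 6, 15, 16 and 19, had 4 other BACH2 peaks each.

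On chromosome 15, a BACH2 peak of 944 bp (76447086 to 76448029, 26.8-fold) touched 2 JunD peaks. One of these, at 76447557 to 76448108, scored 145.9 and was counted as strongly bound. The other, at 76446894 to 76447319, scored 109.95 and was the nearest to the threshold among those left out by score.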
